A study of Homo sapiens with 18 samples.

Results

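The genes described here are numbered LINC genes, most of them long intergenic noncoding RNA genes that carry a serial number in place of a name drawn from a function. They were chosen by name and by measured count, as the symbols of the deposited tables made of LINC and 5 digits that had 10 or more estimated counts in at least 3 of the 18 libraries, with LINC00273 left out. Of 23686 gene symbols, 266 had such a name, and 156 of these met the rule. Of the 110 that did not, 30 had no count in any library. The rule used measured levels: 91 members reached 10 counts in all 18 libraries, 14 reached it in OCI-Ly1 libraries alone and 7 in TMD8 libraries alone. Just inside it were LINC00271 and LINC00304, with 10 counts in exactly 3 libraries and highest counts of 12 and 26, and just outside it were LINC00293, LINC00332, LINC00551 and LINC00575, with 2 libraries each and highest counts of 10 to 15.

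The study compared 2 human diffuse large B-cell lymphoma lines, OCI-Ly1, known as a germinal-centre-type line, and TMD8, known as an activated-B-cell-type line. The groups of each line were cells with 0.01% DMSO alone and cells with JIB-04, a pan-inhibitor of the Jumonji histone demethylases, at 150 nM or at 500 nM. Each of the 6 groups has 3 libraries, which the labels call technical replicates, so every p-value below covers the spread between libraries and not between separate cultures. Total RNA was depleted of ribosomal RNA, OCI-Ly1 grew in IMDM and TMD8 in an RPMI medium (line and medium cannot be told apart), and the treatment time is not given in the sources used here. The series title names heterochromatin fidelity as a vulnerability in lymphoma, and the comparisons ask how these genes responded to each dose in each line.

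Long noncoding RNAs are transcribed by RNA polymerase II, often spliced and polyadenylated, and are usually expressed at lower levels and in fewer cell types than messenger RNAs. Some act on neighbouring genes, some act in trans as scaffolds or decoys for proteins, some are only the primary transcripts of small RNAs, and several first numbered as LINC genes were later found to encode small proteins. Jumonji demethylases remove methyl groups from histone lysines, among them marks of silent and of active chromatin. In RefSeq, 152 of the 156 members were matched by symbol or synonym: 134 are now long noncoding RNA genes, 15 are protein-coding and 3 are transcribed pseudogenes. Of the matched members 38 have been renamed, 21 overlap a protein-coding gene, and 5 carry a name for divergent transcription from a protein-coding neighbour (LINC00167, LINC00271, LINC00441, LINC00535 and LINC00637).

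The start regions of 6 members on which the results turn are shown first, since they span the responses described below. Each runs from 250 bases before to 50 bases after the annotated start, 5′ to 3′ on the gene's own strand, from RefSeq on GRCh38.p14, with every CG dinucleotide in capitals. LINC00441 and LINC00461 were higher at 500 nM in both lines, LINC00657 and LINC00547 were lower in OCI-Ly1 and higher in TMD8 (not higher in TMD8 on the uncentred TPM scales given below), LINC00263 was called higher in TMD8 alone, and LINC00641 was lower in both lines.
LINC00441 (RB1-DT, chr13:48303653-48303952, minus strand): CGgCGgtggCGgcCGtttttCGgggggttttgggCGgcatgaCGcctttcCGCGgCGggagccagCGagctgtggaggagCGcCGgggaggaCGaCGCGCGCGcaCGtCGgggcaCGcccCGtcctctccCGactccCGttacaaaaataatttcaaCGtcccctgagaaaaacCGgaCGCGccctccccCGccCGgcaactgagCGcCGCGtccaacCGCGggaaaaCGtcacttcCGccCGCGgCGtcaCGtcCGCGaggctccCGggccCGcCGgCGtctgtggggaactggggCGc
LINC00461 (MIR9-2HG, chr5:88684776-88685075, minus strand): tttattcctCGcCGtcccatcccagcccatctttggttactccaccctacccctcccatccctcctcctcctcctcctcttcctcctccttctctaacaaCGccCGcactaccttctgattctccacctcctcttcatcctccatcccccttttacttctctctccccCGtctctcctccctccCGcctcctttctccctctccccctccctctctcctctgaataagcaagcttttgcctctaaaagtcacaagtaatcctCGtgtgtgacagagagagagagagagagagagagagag
LINC00657 (NORAD, chr20:36050911-36051210, minus strand): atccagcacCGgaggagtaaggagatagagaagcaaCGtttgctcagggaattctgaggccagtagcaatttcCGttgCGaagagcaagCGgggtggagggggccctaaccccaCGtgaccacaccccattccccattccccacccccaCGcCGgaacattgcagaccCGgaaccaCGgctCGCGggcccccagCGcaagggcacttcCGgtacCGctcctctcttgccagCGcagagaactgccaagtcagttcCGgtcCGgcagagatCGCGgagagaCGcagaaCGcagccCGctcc
LINC00547 (chr13:37534690-37534989, plus strand): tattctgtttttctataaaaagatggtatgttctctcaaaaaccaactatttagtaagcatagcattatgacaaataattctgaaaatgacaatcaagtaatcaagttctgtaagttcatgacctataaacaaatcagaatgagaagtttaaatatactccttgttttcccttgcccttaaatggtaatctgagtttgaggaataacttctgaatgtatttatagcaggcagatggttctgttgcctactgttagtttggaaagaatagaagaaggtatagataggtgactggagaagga
LINC00263 (OLMALINC, chr10:100373326-100373625, plus strand): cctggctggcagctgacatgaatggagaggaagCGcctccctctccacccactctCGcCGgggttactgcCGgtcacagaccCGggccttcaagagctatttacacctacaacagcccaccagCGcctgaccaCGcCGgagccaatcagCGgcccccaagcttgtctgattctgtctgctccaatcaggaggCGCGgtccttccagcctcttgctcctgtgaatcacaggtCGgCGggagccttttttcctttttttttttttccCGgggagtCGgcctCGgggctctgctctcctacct
LINC00641 (chr14:21206851-21207150, minus strand): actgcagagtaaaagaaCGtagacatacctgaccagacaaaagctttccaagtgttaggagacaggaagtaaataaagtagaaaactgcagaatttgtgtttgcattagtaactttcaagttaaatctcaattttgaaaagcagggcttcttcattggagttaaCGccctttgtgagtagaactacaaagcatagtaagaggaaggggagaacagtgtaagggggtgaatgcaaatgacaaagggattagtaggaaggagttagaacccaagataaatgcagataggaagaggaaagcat
The number of CG dinucleotides was 48 in the LINC00441 window, 23 in LINC00657, 16 in LINC00263, 7 in LINC00461, 2 in LINC00641 and 0 in LINC00547. The G and C share ran from 71.3% in LINC00441 to 32.3% in LINC00547. These 6 windows were picked, and the part of base composition in the responses was not tested.

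The OCI-Ly1 libraries held 17579732 to 32651115 estimated counts, those of TMD8 9550092 to 20509500. A list of B-cell markers summed to 943 to 990 TPM, a level per transcript length, in the OCI-Ly1 DMSO libraries and to 801 to 933 TPM in those of TMD8. At 500 nM the same sum was 875 to 961 TPM in OCI-Ly1 and 538 to 618 TPM in TMD8, and the part of this in the results below was not tested. Of 4 germinal-centre markers BCL6, MME and MYBL1 were higher in every OCI-Ly1 library (MME at 61.5 to 93.0 TPM, against 0 to 0.0298 TPM in TMD8), while LMO2 went against the label, at 0 to 1.06 TPM in OCI-Ly1 and 6.75 to 28.1 TPM in TMD8. Of 4 activated-B-cell markers IRF4 and PRDM1 were higher in every TMD8 library (PRDM1 at 42.7 to 61.8 TPM, against 0.334 to 0.725 TPM), FUT8 overlapped between the lines, and IL16 went against the label, at 16.4 to 19.4 TPM in OCI-Ly1 and 8.58 to 11.4 TPM in TMD8. T-cell markers summed to 26.6 to 29.4 TPM in OCI-Ly1 with DMSO and 12.2 to 14.1 TPM at 500 nM, mainly CD3D and CD3G, and to 1.54 to 2.13 TPM in the same groups of TMD8, where CD3E was at 0. In bulk samples like these, fewer cells of a type and less RNA per cell cannot be told apart.

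With DMSO the members were mostly weakly expressed. Their median level was 1.69 TPM in OCI-Ly1 and 0.831 TPM in TMD8. A difference of this kind was not particular to them. On log2(TPM + 0.1) the median difference, OCI-Ly1 minus TMD8, was 0.88 for all tested genes and 0.80 for the members. At least 10 TPM was reached by 19 members in OCI-Ly1 and by 4 in TMD8, and under 0.1 TPM lay 7 and 17 members. The highest per length was LINC00493 in OCI-Ly1, at 108 TPM, and LINC00152 in TMD8, at 61.3 TPM. LINC00152, now CYTOR, a cytoskeleton-linked RNA, was at 34.3 to 41.0 CPM (counts relative to the library total, scaled within each line by the trimmed mean of M-values, TMM) across all TMD8 libraries and at 1.70 to 2.70 CPM across those of OCI-Ly1. The difference between the DMSO groups was -3.99 on the log2 scale in the fit of all 18 libraries (SE 0.12, edgeR adjusted p 2e-21). On the TMM scale LINC00152 was called at neither dose in either line. In TMD8 at 500 nM it was called lower on log2(TPM + 1) (-0.39, limma adjusted p 0.008) and log2(TPM + 0.1) (-0.40, limma adjusted p 0.018). LINC00698 had 173 to 382 counts per OCI-Ly1 library and 0 to 1 per TMD8 library. LINC00684, at 1.70 TPM with DMSO in OCI-Ly1, had 5 to 15 counts there and 0 to 3 in TMD8, and LINC00858 had 19 to 41 counts in TMD8 and 0 to 2 in OCI-Ly1.

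Between the DMSO groups, 41 of 154 tested members were higher in OCI-Ly1 and 38 were higher in TMD8 at an edgeR adjusted p under 0.05, in a comparison where 76.7% of all genes were called. The 154 include members that reached 10 counts in 1 line alone (14 in OCI-Ly1 and 7 in TMD8 over all 156 members). For those a difference between the lines follows in part from the rule, and the counts without them were not computed. The near-even division of 41 and 38 depends on the scaling. On log2(TPM + 1), 101 were higher in OCI-Ly1 and 12 in TMD8, and on log2(TPM + 0.1) 104 and 13. With each library centred they were 33 and 83. All genes moved the same way. Their median difference, OCI-Ly1 minus TMD8, was 0.61, 0.88 and -0.11 on these scales, beside 0.41, 0.80 and -0.31 for the members. On the TMM scale it was -0.02 for all genes and -0.08 for the members. The TPM scale is set by all transcripts of a library, and 1 small noncoding transcript, MIR3687, made up 16.1% to 17.3% of all TPM in the TMD8 DMSO libraries and 19.1% to 24.3% at 500 nM. In OCI-Ly1 the transcript with the most TPM was RPPH1, at 6.88% to 7.63% with DMSO and 9.70% to 10.6% at 500 nM. The part of these transcripts in the differences between scales was not tested. The division of the members between the lines is given for each scale. Changes within a line are given on the count scale, with their TPM value where the direction differs.

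In OCI-Ly1, no numbered LINC gene passed the test at 150 nM. None of 142 tested members was called in either direction by edgeR, where 0.889% of all genes were (0.748% higher), and DESeq2 also called 0. At an unadjusted p under 0.05 there were 12, a count that cannot be judged, since the share of all genes at that threshold was not computed. The median log2 change was -0.07 for the members and -0.0046 for all tested genes, on the TMM scale used for every log2 change below unless another is named.

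At 500 nM the OCI-Ly1 members changed mostly downward: 43 of 142 were lower and 15 were higher than with DMSO. That is 30.3% and 10.6% of the tested members, beside 25.9% and 27.7% of all genes, with 53.6% called in all. The share called lower was therefore near that of all genes, and the share called higher was below it. Of the called members 25.9% were higher on the TMM scale, 35.3% on library size alone, 41.5% on log2(TPM + 1), 44.4% on log2(TPM + 0.1) and 10.9% with centred log2(TPM + 1). The median log2 change of the members was -0.39, with quartiles at -0.62 and 0.01, and that of all genes was -0.0033. The median of the members lay under that of all genes by 0.22 to 0.42 in every scaling and filter tried. Against 150 nM, 34 members were lower at 500 nM and 12 were higher, where 46.2% of all genes were called, with a median log2 change of -0.24. That count of higher members was 4 without the second 150 nM library and 5 without the first 500 nM library.

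**Figure D1:**
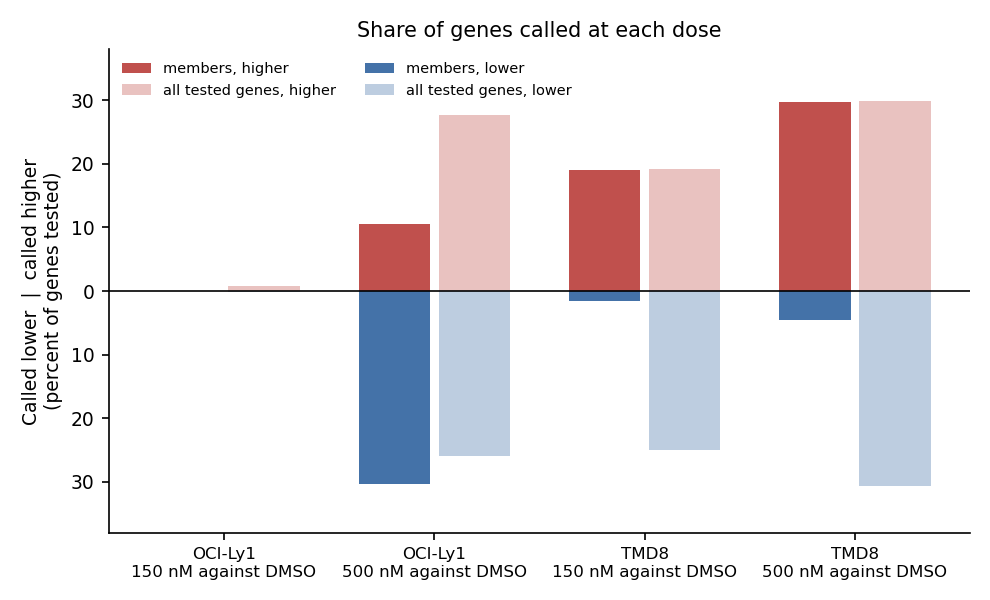
Percent of tested genes called higher or lower by edgeR at an adjusted p under 0.05 in each dose contrast, for the LINC members and for all genes. At 500 nM the members' bars stand at 10.6% higher and 30.3% lower in OCI-Ly1 and at 29.8% higher and 4.58% lower in TMD8, where on log2(TPM + 1) the calls were 11 higher and 16 lower.

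Well-known members were among those that fell in OCI-Ly1. LINC00657, now NORAD, a cytoplasmic RNA that binds Pumilio proteins and is known for its part in genome stability, held 28.1% to 32% of all member counts in this line. It stood at 424, 425 and 441 CPM with DMSO, at 401, 455 and 438 CPM at 150 nM, and at 335, 342 and 338 CPM at 500 nM. The 500 nM libraries lay under all 6 others (60.7% of all genes did not overlap between DMSO and 500 nM), a log2 change of -0.35 (SE 0.05, edgeR adjusted p 1.4e-05).

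Of the 14 members that reached 10 counts in OCI-Ly1 libraries alone, 13 were tested at 500 nM: 2 were higher (LINC00309 and LINC00086), 2 were lower (LINC00698 and LINC00340) and 9 were not called, with a median log2 change of 0.15. LINC00698 was at 13.1, 13.0 and 14.8 CPM with DMSO, at 15.4, 13.4 and 12.1 CPM at 150 nM and at 5.15, 7.94 and 6.42 CPM at 500 nM. Its log2 change was -1.08 (SE 0.14, edgeR adjusted p 4.4e-06), with no overlap between the 500 nM libraries and the rest. LINC00426 went from 31.0 to 33.6 CPM with DMSO to 20.7 to 21.2 CPM at 500 nM, a log2 change of -0.62 (edgeR adjusted p 6.2e-07), and its TMD8 libraries were under 1 CPM. LINC00698 and LINC00426 were lower in each 500 nM library than in any DMSO or 150 nM library, and neither was called at 150 nM.

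LINC00516 was at 17.0 to 18.1 CPM with DMSO, at 14.7 to 15.1 CPM at 150 nM and at 9.81 to 10.8 CPM at 500 nM. The 3 ranges did not overlap, and the log2 change at 500 nM was -0.78 (edgeR adjusted p 7.7e-07). LINC00338, now SNHG20, which hosts a small nucleolar RNA, changed by -0.44 (edgeR adjusted p 0.00068), and LINC00485, under 3 CPM in OCI-Ly1, by -1.22 (edgeR adjusted p 0.006). The calls of some members of low level rested on single libraries: LINC00235 (-1.05) lost its call without any of DMSO libraries 1 or 2 or 500 nM libraries 2 or 3, with adjusted p of 0.056 to 0.066, LINC00637 (-0.98) without DMSO library 3 or 500 nM libraries 1 or 3, and LINC00331 (-0.83) without DMSO libraries 1 or 3 or 500 nM library 2.

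Of the 15 OCI-Ly1 members that rose, 5 had a mean under 1 CPM, 4 one of 1 to 5 CPM and 6 one of 5 CPM or more. These levels held 49, 57 and 36 of the tested members. LINC00563 was at 0.198, 0.411 and 0.202 CPM with DMSO, at 0.484, 0.289 and 0.479 CPM at 150 nM and at 1.34, 0.929 and 0.790 CPM at 500 nM. Every 500 nM library exceeded the other 6, with a log2 change of 1.98 (SE 0.42, edgeR adjusted p 0.00078). LINC00665, a long noncoding RNA studied in several cancers, stood at 10.9, 9.39 and 10.9 CPM with DMSO and at 16, 14.4 and 14.1 CPM at 500 nM (log2 change 0.51, edgeR adjusted p 0.00042). LINC00086 rose by 1.03 (edgeR adjusted p 0.027), a call lost without DMSO library 2 or 3 or 500 nM library 1 or 2, with DESeq2 (adjusted p 0.081) and with centred log2(TPM + 1), where the change was 0.021 (limma adjusted p 0.83).

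In TMD8 the called members were mostly higher on the count scale, from the lower dose on, and at 500 nM were not mostly higher on the uncentred TPM scales given below. At 150 nM, 25 of 131 tested members were higher and 2 were lower, where 44.2% of all genes were called, 19.2% higher and 25% lower. At 500 nM, 39 were higher and 6 lower, or 29.8% and 4.58%, where 60.7% of all genes were called, 29.9% higher and 30.7% lower. The share of members called higher was therefore near that of all genes, and the share called lower was below it. The median log2 change was 0.22 at 150 nM and 0.27 at 500 nM, beside 0.01 and 0.04 for all genes. Library 3 of the 150 nM group bore on the first count, which was 15 without it.

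The direction in TMD8 at 500 nM depends on the scale. Of the called members 92.6% were higher at 150 nM and 86.7% at 500 nM on the TMM scale. On log2(TPM + 1) these shares were 70.0% (7 higher, 3 lower) and 40.7% (11 higher, 16 lower), and on log2(TPM + 0.1) 75% (9 and 3) and 43.8% (14 and 18). With centred log2(TPM + 1) they were 95.8% (23 higher, 1 lower) and 88.6% (62 and 8). The members' median at 500 nM was -0.03 and -0.06 on the uncentred TPM scales, where the median of all genes was itself -0.22 and -0.31. Relative to all genes, the members' median was higher by 0.18 to 0.28 in every scaling and filter tried at 500 nM, and by 0.13 to 0.25 at 150 nM.

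The comparisons of each dose with DMSO share the DMSO libraries. Between the doses 9 members were higher at 500 nM and 1 was lower, where 28.7% of all genes were called. The count of 9 was 5 without 150 nM library 2 or 500 nM library 1 and 4 without 500 nM library 3. The single lower call became 2 without 150 nM library 2 or 500 nM library 2 and 0 without 150 nM library 3 or 500 nM library 3.

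LINC00624, near BCL9, a Wnt coactivator gene, was picked out after its large rise in TMD8 was seen. Its DMSO libraries had 3, 16 and 10 counts, the 150 nM libraries 20, 15 and 37, and the 500 nM libraries 105, 78 and 50. In CPM these were 0.190, 0.897 and 0.503, then 1.45, 1.04 and 1.84, then 6.92, 5.84 and 5.11, so the 3 dose groups did not overlap (66.4% of all genes did not between DMSO and 500 nM, and 44.8% between the doses). The log2 change of LINC00624 was 3.46 at 500 nM (SE 0.31, edgeR adjusted p 2.8e-08), called in every alternative with values of 0.83 to 4.02, and 1.43 at 150 nM (edgeR adjusted p 0.0047), where log2(TPM + 1) gave an adjusted p of 0.067. In OCI-Ly1 it was at 0.753, 0.763 and 1.09 CPM with DMSO and 1.10, 0.852 and 1.42 CPM at 500 nM (log2 change 0.37, edgeR adjusted p 0.35). BCL9 itself was lower at 500 nM in both lines, by a log2 change of -0.69 in OCI-Ly1 and -0.49 in TMD8.

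LINC00263, now OLMALINC, lies beside SCD, the stearoyl-CoA desaturase gene of fatty-acid synthesis. The TMD8 libraries stood at 3.43, 3.25 and 4.02 CPM with DMSO, at 5.15, 5.80 and 7.14 CPM at 150 nM, and at 7.18, 7.63 and 8.39 CPM at 500 nM. Each dose group lay wholly above the one before, with log2 changes of 0.77 (SE 0.16, edgeR adjusted p 0.00069) and 1.10 (SE 0.16, edgeR adjusted p 8.6e-06). In OCI-Ly1 it went from 1.74, 1.47 and 2.06 CPM to 1.34, 0.929 and 1.15 CPM at 500 nM (log2 change -0.62, edgeR adjusted p 0.065). SCD changed by -0.28 in OCI-Ly1 and -0.31 in TMD8.

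LINC00667 was at 51.3, 51.4 and 51.4 CPM with DMSO in TMD8, at 60.7, 59.8 and 65.1 CPM at 150 nM and at 65.0, 66.1 and 63.5 CPM at 500 nM. Its log2 change at 500 nM was 0.34 (edgeR adjusted p 2.2e-05), against -0.034 on log2(TPM + 1), and -0.04 in OCI-Ly1. LINC00494 and LINC00176 rose by 1.36 and 1.08, calls that were lost on log2(TPM + 1), and LINC00351 by 0.97, lost without 500 nM library 1 or 3 and with DESeq2. LINC00304 entered the set through its TMD8 500 nM libraries alone and is described without a test, though it is 1 of the 39 members counted as higher at 500 nM in TMD8 and of the 9 counted as higher than at 150 nM (38 and 8 without it): its DMSO libraries had 1, 3 and 1 counts, the 150 nM libraries 2, 3 and 8, and the 500 nM libraries 26, 17 and 13. Against a floor of 3 counts per DMSO library, or 0.170 CPM, that is at least 8.47-fold higher.

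Few TMD8 members fell on the count scale. LINC00116, now MTLN, which encodes the mitochondrial microprotein mitoregulin, was at 8.57, 7.40 and 7.95 CPM with DMSO, at 7.55, 5.53 and 6.80 CPM at 150 nM and at 4.61, 5.98 and 4.71 CPM at 500 nM. The DMSO and 500 nM groups did not overlap, with a log2 change of -0.64 (edgeR adjusted p 0.0011), and in OCI-Ly1 the change was 0.10. LINC00094, now BRD3OS, which lies opposite the bromodomain gene BRD3, changed by -0.27 (edgeR adjusted p 0.004). LINC00324 changed by -0.41, a call lost without DMSO library 1 or 500 nM libraries 2 or 3.

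**Figure D2:**
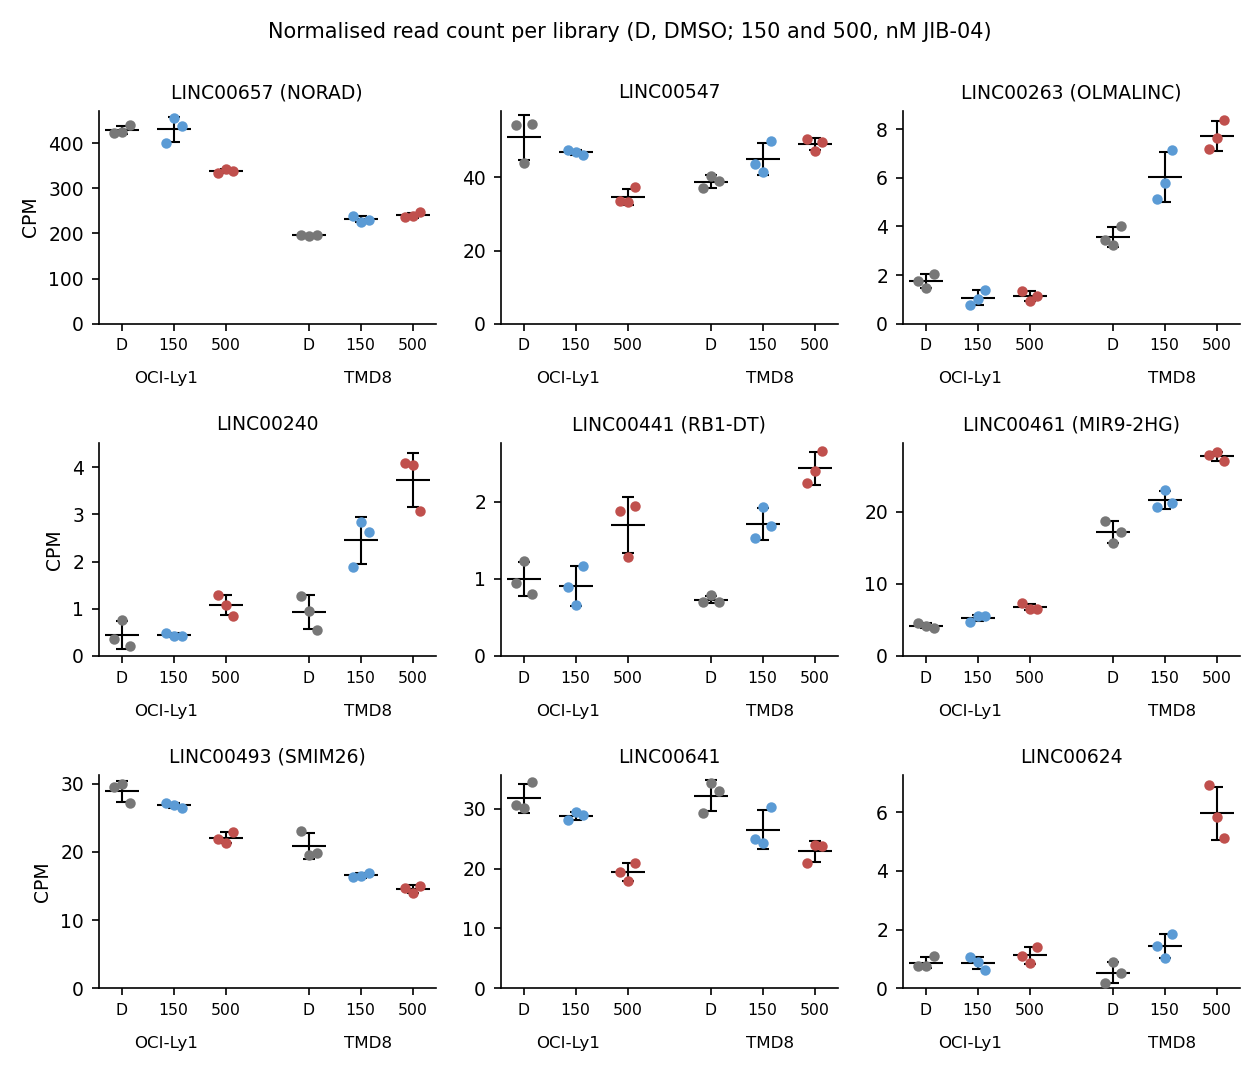
Level of 9 members in every library, in TMM-scaled CPM on a linear axis, by line and JIB-04 dose, with points for the 3 libraries of each group and bars for their mean ± SD. LINC00624 reaches 5.11 to 6.92 CPM in TMD8 at 500 nM; LINC00657 and LINC00547 lie lower in OCI-Ly1 and higher in TMD8 at 500 nM, the TMD8 rise not holding on the 2 uncentred TPM scales.

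Of the 119 members tested in both lines, 44 were called in neither at 500 nM. A further 28 were called lower in OCI-Ly1 alone, 19 higher in TMD8 alone, 4 higher in OCI-Ly1 alone and 3 lower in TMD8 alone. Called in both lines were 9 that were higher in both, 3 that were lower in both and 9 that were lower in OCI-Ly1 and higher in TMD8, and 0 that went the reverse way. Of the 14483 genes tested in both lines, 20.7% were called in neither, where 37.0% of the members were. Lower in OCI-Ly1 alone were 9.49% of all genes and 23.5% of the members, higher in TMD8 alone 11.4% and 15.97%, higher in OCI-Ly1 alone 9.02% and 3.36%, and lower in TMD8 alone 13.0% and 2.52%. Of all genes 14.1% were higher in both, 13.7% lower in both, 3.49% lower in OCI-Ly1 and higher in TMD8, and 5.01% the reverse, beside 7.56%, 2.52%, 7.56% and 0% of the members. The lines share no libraries, so these are separate measurements of each gene.

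**Figure D3:**
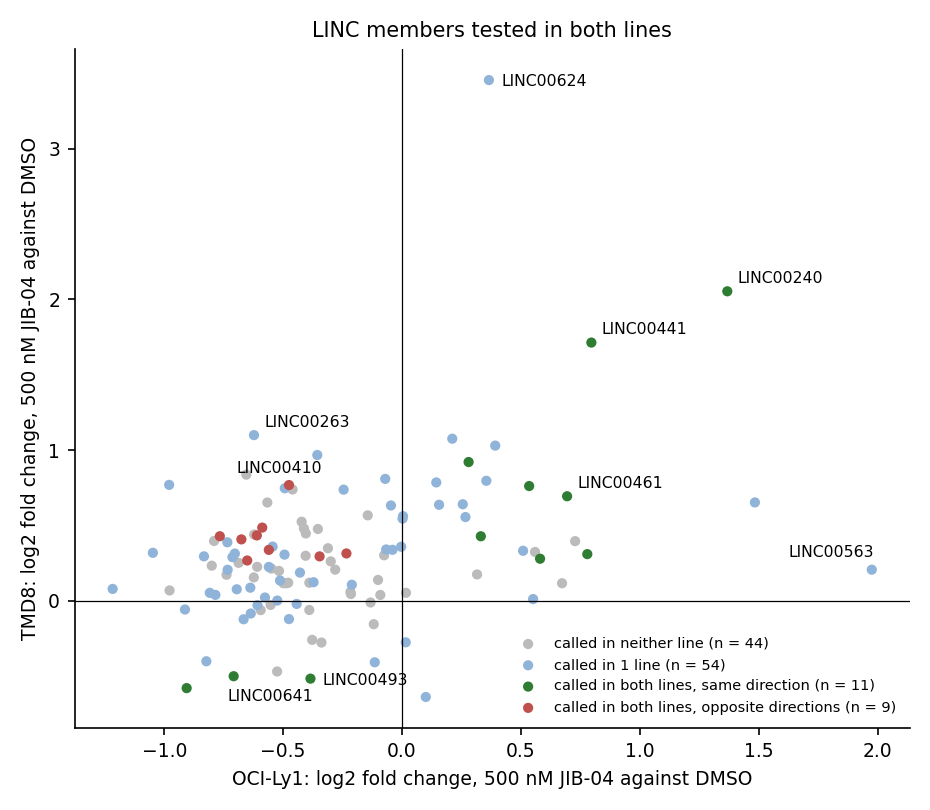
Log2 change at 500 nM against DMSO in OCI-Ly1 (x axis) and TMD8 (y axis) for 118 members tested in both lines (the Y-linked member is not drawn), on the TMM count scale, coloured by edgeR calls at an adjusted p under 0.05. No member is called higher in OCI-Ly1 and lower in TMD8, while 9 are called lower in OCI-Ly1 and higher in TMD8, of which 5 stay higher in TMD8 on log2(TPM + 1).

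Members higher in both lines were LINC00115, LINC00240, LINC00341, LINC00441, LINC00461, LINC00467, LINC00662, LINC00847 and 1 Y-linked member that is not described. On log2(TPM + 1) 6 of the 8 described remained higher in TMD8, 3 of them called, while LINC00341 and LINC00662 were not higher there. LINC00240, in the histone gene cluster, was at 0.357, 0.763 and 0.202 CPM in OCI-Ly1 with DMSO, at 0.484, 0.413 and 0.426 CPM at 150 nM and at 1.28, 1.08 and 0.856 CPM at 500 nM (log2 change 1.37, SE 0.41, edgeR adjusted p 0.0089). In TMD8 the libraries read 1.27, 0.953 and 0.553 CPM, then 1.89, 2.83 and 2.63 CPM, then 4.09, 4.04 and 3.07 CPM (2.05, SE 0.27, edgeR adjusted p 3.3e-06). Its TMD8 change at 150 nM was already 1.44 (edgeR adjusted p 0.00043), while the OCI-Ly1 libraries at 150 nM lay within the DMSO range, and the OCI-Ly1 call at 500 nM was lost without DMSO library 3 (0.998, edgeR adjusted p 0.063). The neighbouring histone gene HIST1H2BJ changed by -1.62 in OCI-Ly1 and -1.68 in TMD8.

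LINC00441, whose CG-rich start region is printed above, is transcribed divergently from RB1, the retinoblastoma tumour suppressor gene. In TMD8 libraries it stood at 0.698, 0.785 and 0.704 CPM with DMSO, at 1.52, 1.93 and 1.69 CPM at 150 nM and at 2.24, 2.39 and 2.66 CPM at 500 nM. The 3 dose groups were fully separated, with log2 changes of 1.22 and 1.71 (SE 0.24, edgeR adjusted p 8e-06 for the latter). In OCI-Ly1 it was at 0.952, 1.23 and 0.807 CPM with DMSO, at 0.888, 0.660 and 1.17 CPM at 150 nM and at 1.88, 1.28 and 1.94 CPM at 500 nM (log2 change 0.80, SE 0.29, edgeR adjusted p 0.03). The OCI-Ly1 call was lost without DMSO library 1 or 3 or 500 nM library 1 or 3 (0.66 to 0.77, edgeR adjusted p 0.077 to 0.11) and with DESeq2 (0.79, adjusted p 0.076). RB1 changed by 0.24 in OCI-Ly1 (edgeR adjusted p 0.036) and by -0.31 in TMD8 (edgeR adjusted p 0.00023).

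LINC00461, now MIR9-2HG, the host gene of the brain-enriched microRNA miR-9-2, changed by 0.69 on the log2 scale in both lines. In OCI-Ly1 it was at 4.52, 4.17 and 3.87 CPM with DMSO, at 4.76, 5.53 and 5.48 CPM at 150 nM and at 7.30, 6.47 and 6.55 CPM at 500 nM (log2 change 0.69, SE 0.14, edgeR adjusted p 0.00035). TMD8 libraries had 18.7, 15.7 and 17.1 CPM, then 20.7, 23 and 21.1 CPM, then 27.8, 28.2 and 27.0 CPM (0.69, SE 0.08, edgeR adjusted p 4.9e-07). All groups of TMD8 were separated from each other, although on log2(TPM + 1) and log2(TPM + 0.1) the TMD8 changes were 0.17 and 0.21 and not called.

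LINC00115 was at 1.82 to 1.995 CPM with DMSO and 2.59 to 2.80 CPM at 500 nM in OCI-Ly1, and at 2.67 to 2.87 CPM and 4.64 to 4.81 CPM in TMD8 (log2 changes 0.53 and 0.76). LINC00662 went from 16.5 to 19.1 CPM to 23.1 to 29.3 CPM in OCI-Ly1, and in TMD8 libraries it moved from 8.57 to 10.2 CPM to 10.1 to 12.6 CPM, where the ranges overlap (log2 changes 0.58 and 0.28). LINC00847 went from 17.1 to 19.2 CPM to 21.0 to 23.7 CPM in OCI-Ly1, and in TMD8 libraries it moved from 11.9 to 13.3 CPM to 16.2 to 17.5 CPM (log2 changes 0.33 and 0.43). These log2 changes were under those of LINC00240 and LINC00441. LINC00467 was at 11.1 to 12.5 CPM with DMSO and 12.8 to 16.1 CPM at 500 nM in OCI-Ly1, and LINC00341, whose symbol is now that of the nesprin gene SYNE3, at 2.30 to 2.42 CPM and 3.90 to 4.26 CPM. SYNE3 is also listed in the tables, so reads of LINC00341 could be divided between the symbols. Several of these calls depended on single libraries: LINC00115 in OCI-Ly1 lost its call without DMSO library 1 or 3 or 500 nM library 1 or 3 (edgeR adjusted p 0.057 to 0.07), LINC00662 in TMD8 without DMSO library 1 or 2 or 500 nM library 1 or 2 (0.076 to 0.21), and LINC00467 in OCI-Ly1 without DMSO library 2 or 3 or 500 nM library 1 or 3 (0.051 to 0.17) and in TMD8 without 500 nM library 1 (0.052).

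Lower in both lines were LINC00493, LINC00641 and LINC00854, with the same sign in every scaling. LINC00493, now SMIM26, encodes a small mitochondrial membrane protein. It was at 29.5, 30.05 and 27.1 CPM in OCI-Ly1 with DMSO, at 27.2, 26.9 and 26.4 CPM at 150 nM and at 21.9, 21.4 and 22.95 CPM at 500 nM (log2 change -0.38, SE 0.07, edgeR adjusted p 0.00022). In TMD8 its level was 23.05, 19.6 and 19.9 CPM, then 16.3, 16.4 and 17.0 CPM, then 14.7, 14.0 and 15.04 CPM (-0.52, SE 0.08, edgeR adjusted p 4e-05). Both lines thus ended with a non-overlapping lower level, and TMD8 already did at 150 nM (-0.33, edgeR adjusted p 0.0031).

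LINC00641, whose AT-rich start region is printed above, lies beside HNRNPC, a gene of messenger RNA processing. In OCI-Ly1 it was at 30.6, 30.2 and 34.5 CPM with DMSO, at 28.1, 29.5 and 29.0 CPM at 150 nM and at 19.4, 18.01 and 20.9 CPM at 500 nM (log2 change -0.71, SE 0.08, edgeR adjusted p 8.2e-07). The TMD8 values were 29.3, 34.3 and 33.0 CPM, then 24.96, 24.4 and 30.3 CPM, then 20.9, 24.01 and 23.8 CPM (-0.50, SE 0.09, edgeR adjusted p 0.00013). In both lines every 500 nM library was under every DMSO library. LINC00854, now the coding gene CCDC200, was at 0.939 to 1.51 CPM with DMSO and 0.310 to 0.864 CPM at 500 nM in OCI-Ly1, and at 2.54 to 3.12 CPM and 1.43 to 2.17 CPM in TMD8. Its calls were lost in OCI-Ly1 without DMSO library 1 or 3 or 500 nM library 2 or 3, and in TMD8 without DMSO library 2 or 3 or 500 nM library 3. They were also lost in OCI-Ly1 and in TMD8 with library size alone (adjusted p 0.063 and 0.06) and with DESeq2 (adjusted p 0.075 and 0.087), and in OCI-Ly1 on log2(TPM + 0.1) (limma adjusted p 0.078).

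The 9 members that were lower in OCI-Ly1 and higher in TMD8 were LINC00346, LINC00410, LINC00439, LINC00547, LINC00652, LINC00657, LINC00663, LINC00672 and LINC00674. All 9 had a negative change in OCI-Ly1 in every scaling, of which 8 were called on log2(TPM + 1) and 7 on log2(TPM + 0.1). In TMD8 5 of the 9 stayed higher on log2(TPM + 1), with 0 called and a range of -0.08 to 0.24, and all 9 were higher with centred values, 8 of them called. The change in OCI-Ly1 minus that in TMD8 was itself tested in a fit of all 18 libraries. It was called for all 9, and for 7 of them (LINC00346, LINC00410, LINC00439, LINC00547, LINC00652, LINC00663 and LINC00672) it was called in every alternative fit.

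NORAD, lower in OCI-Ly1 as given above, was at 197, 196 and 196 CPM in TMD8 with DMSO, at 240, 226 and 229 CPM at 150 nM and at 237, 238 and 247 CPM at 500 nM. Both doses lay above every DMSO library, with log2 changes of 0.24 and 0.30 (SE 0.04, edgeR adjusted p 1.3e-05 for the latter). In TPM its mean went from 26.1 to 24.6 in TMD8 and from 103 to 89.0 in OCI-Ly1, so the TMD8 rise in LINC00657 was not seen on that scale (-0.077 on log2(TPM + 1)). In OCI-Ly1 the call for LINC00657 was lost on log2(TPM + 0.1) (-0.21, limma adjusted p 0.052). The difference between the lines was -0.61 on the log2 scale (SE 0.07, edgeR adjusted p 9.4e-08), and -0.13 and not called on the uncentred TPM scales.

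LINC00547 was at 54.3, 43.9 and 54.6 CPM in OCI-Ly1 with DMSO, at 47.6, 47.0 and 46.2 CPM at 150 nM and at 33.5, 33.2 and 37.3 CPM at 500 nM (log2 change -0.56, SE 0.08, edgeR adjusted p 1.4e-05). TMD8 gave 37.1, 40.5 and 38.9 CPM, then 43.8, 41.6 and 50 CPM, then 50.5, 47.2 and 49.7 CPM (0.34, SE 0.07, edgeR adjusted p 0.00042; -0.032 on log2(TPM + 1)). In each line the 500 nM libraries did not overlap those with DMSO, and in OCI-Ly1 they lay under the 150 nM libraries as well.

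LINC00410, the member of this group with the largest difference between the lines, was at 6.38, 6.57 and 5.73 CPM in OCI-Ly1 with DMSO and at 4.14, 4.26 and 5.01 CPM at 500 nM (log2 change -0.48, edgeR adjusted p 0.0067). In the other line, TMD8, it stood at 3.24, 3.53 and 3.87 CPM with DMSO and at 6.13, 5.54 and 6.65 CPM at 500 nM (log2 change 0.77, edgeR adjusted p 0.00062). Neither line's 500 nM libraries overlapped its DMSO libraries, and the difference in change was -1.21 (edgeR adjusted p 3.2e-05). LINC00652 went from 14.1 to 16.6 CPM to 8.70 to 9.60 CPM in OCI-Ly1, and in TMD8 libraries it moved from 7.24 to 10.5 CPM to 11.97 to 13.2 CPM, a difference of -1.17 (edgeR adjusted p 4.5e-06). LINC00663 went from 33.6 to 35.02 CPM to 20.6 to 22.4 CPM in OCI-Ly1, and in TMD8 libraries it moved from 14.2 to 16.4 CPM to 20.2 to 20.4 CPM, a difference of -1.05 (edgeR adjusted p 2.4e-08).

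LINC00346, also called PRECSIT, went from 33.4 to 40.7 CPM to 21.1 to 24.9 CPM in OCI-Ly1, and in TMD8 libraries it moved from 26.4 to 31.3 CPM to 32.1 to 35.3 CPM (difference -0.89, edgeR adjusted p 1.3e-06). LINC00672, now the coding gene LASP1NB, and LINC00439 were between 2 and 7 CPM throughout, with differences of -1.05 (edgeR adjusted p 0.00022) and -1.02 (edgeR adjusted p 0.0015). LINC00674 went from 143 to 149 CPM to 123 to 126 CPM in OCI-Ly1, and in TMD8 libraries it moved from 61.6 to 67.1 CPM to 78.2 to 80.7 CPM (difference -0.52, edgeR adjusted p 2.4e-06). In this group the TMD8 calls of LINC00346 (without 500 nM library 1, edgeR adjusted p 0.054), LINC00652 (without DMSO library 1, 0.053, or 500 nM library 2, 0.055) and LINC00439 (without DMSO library 1 or 2 or 500 nM library 1 or 3, 0.054 to 0.22) rested on single libraries.

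Over all 154 members in the joint fit, the OCI-Ly1 change at 500 nM was below the TMD8 change for 48 and above it for 4, where 46.4% of all genes were called, 28.2% above and 18.1% below. The median difference was -0.58, beside 0.05 for all genes. On log2(TPM + 1) and log2(TPM + 0.1) the division was 15 below and 16 above, with the all-gene median at 0.38 and 0.50, and with centred values it was 116 below and 1 above. The members' median lay under that of all genes by 0.45 to 0.70 in every setting. At 150 nM 16 members were below and 0 above, where 23.3% of all genes were called, 15% above and 8.33% below, and the median was -0.28. That count was 8 without library 3 of the TMD8 150 nM group.

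Leaving out the Y-linked member, 51 differences were called at 500 nM and 11 of them in every alternative fit: the 7 above, LINC00116, LINC00263, LINC00514 and LINC00624. LINC00173, which entered the set through TMD8 libraries alone, is among the 51 and among the 48 with a lower OCI-Ly1 change. It is not described further. On an uncentred TPM scale 6 of the 51 turned sign, and none of those 6 was called there. LINC00624 had a difference of -3.07 (edgeR adjusted p 7.4e-06) and LINC00263 one of -1.70 (SE 0.29, edgeR adjusted p 3e-05). LINC00263 also differed at 150 nM, by -1.53 (edgeR adjusted p 0.00054), again in every alternative. The differences of opposite sign were few, and included LINC00563 at 1.79 (edgeR adjusted p 0.0044) and LINC00116 at 0.77 (edgeR adjusted p 0.0027).

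**Figure D4:**
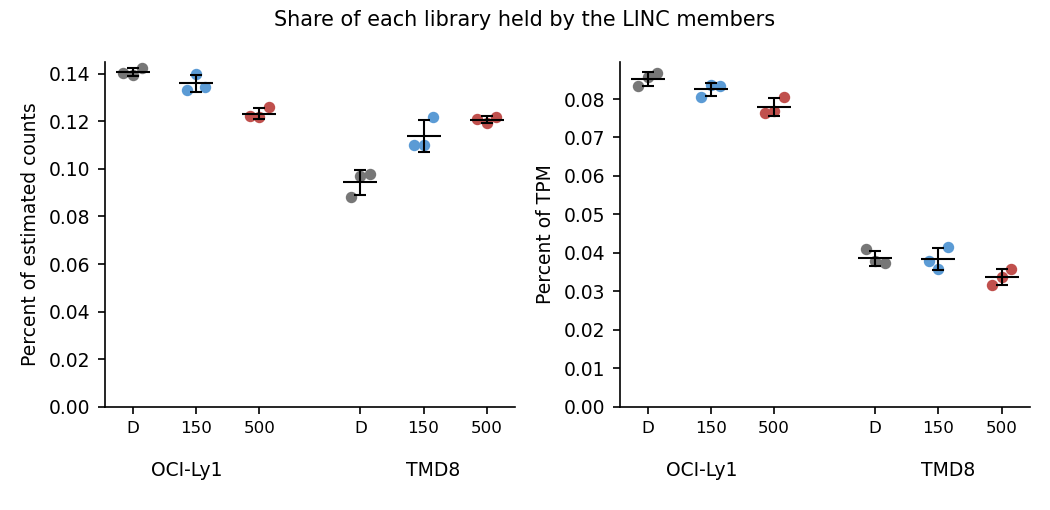
Members' summed share of all estimated counts and of all TPM in each library, in percent, by line and dose. In OCI-Ly1 the share falls at 500 nM on both scales; in TMD8 it is higher at both doses by counts (0.110% to 0.122%, against 0.0884% to 0.0978%) and lower at 500 nM by TPM (0.0318% to 0.0357%, against 0.0372% to 0.0409%).

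Summed, the members took 0.139% to 0.142% of the counts in OCI-Ly1 with DMSO, 0.133% to 0.140% at 150 nM and 0.122% to 0.126% at 500 nM. In TMD8 they took 0.0884% to 0.0978% with DMSO, 0.110% to 0.122% at 150 nM and 0.119% to 0.122% at 500 nM. As shares of TPM, the OCI-Ly1 values were 0.0833% to 0.0867% with DMSO and 0.0763% to 0.0806% at 500 nM, and those of TMD8 0.0372% to 0.0409% and 0.0318% to 0.0357%. The OCI-Ly1 share thus had the same direction on both scales and the TMD8 share did not. NORAD made up 19.4% to 21.9% of the member counts in TMD8.

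Members of higher level were called more often at 500 nM. In OCI-Ly1, 9 of 49 members under 1 CPM were called at 500 nM, with a median SE of 0.43 on the log2 scale, and 24 of 36 at 5 CPM or more, with a median SE of 0.09. In TMD8 the same counts were 3 of 25 and 24 of 37. Of all genes 53.6% were called in OCI-Ly1 and 60.7% in TMD8, shares that were not split by level. The share called thus rose with the level, and a member of low level that was not called is not shown to be stable.

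By role, 17 LINC symbols with a described product or function were listed, of which 11 were members. The listing was made with earlier results of these data known. Of 3 genes of small mitochondrial or other microproteins, LINC00493 was lower in both lines, LINC00116 was lower in TMD8 and not called in OCI-Ly1, and LINC00086 was higher in OCI-Ly1 and too low to test in TMD8. Of 3 hosts of small RNAs, LINC00461 was higher in both lines, LINC00338 was lower in OCI-Ly1 and not called in TMD8 (called lower there on log2(TPM + 1), -0.31), and LINC00478, now MIR99AHG, which hosts miR-99a and let-7c, was called in neither (0.73 in OCI-Ly1, edgeR adjusted p 0.073). Of 5 other studied RNAs, LINC00657 was lower in OCI-Ly1 and higher in TMD8 (-0.077 and -0.080 there on the uncentred TPM scales), LINC00467 was higher in both, LINC00665 was higher in OCI-Ly1 and not called in TMD8 (0.33, edgeR adjusted p 0.069), and LINC00152 and LINC00339 were called in neither.

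Members and their nearest protein-coding genes were set side by side. At 500 nM, 95 member and neighbour pairs were tested in OCI-Ly1. Beside the 12 members of these that were higher, 3 neighbours were higher and 7 lower, and beside the 25 that were lower, 6 were lower and 6 higher. Over the 95 pairs Pearson's r was 0.036 and Spearman's rho 0.089. For the 14 pairs whose member overlaps a coding gene they were 0.499 and 0.504, and for the other 81 they were -0.033 and 0.016. The part of shared reads in this was not tested. In TMD8 there were 87 pairs: beside 30 higher members 6 neighbours were higher and 13 lower. Beside the 6 lower members 2 neighbours were lower and 1 was higher. Over the 87 pairs r was -0.072 and rho 0.052, with 0.143 and 0.123 for the 12 overlapping ones and -0.077 and 0.056 for the other 75. Of all protein-coding genes tested, 29.8% were called higher and 25.6% lower in OCI-Ly1, and 29.1% and 34.1% in TMD8. Pairs share the library and local base composition, and these values are descriptions across genes.

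Start regions were found in RefSeq for 110 of the 156 members. Their median G and C share was 54.8% and their median number of CG dinucleotides 7, beside 58.3% and 14 for all 27305 start regions of the table. The 28 that were higher in TMD8 at 500 nM on the TMM scale had medians of 59.7% and 13, the 6 lower there 59.0% and 17.5, and the 62 not called there 50.2% and 6. In OCI-Ly1 the 10 higher, 36 lower and 56 uncalled members had medians of 13, 7 and 7 CG dinucleotides. Called members were also of higher level, and the part of base composition in the calls was not tested.

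The letters TATAAA, the core of the TATA box, on either strand, were in 14.5% of the members' windows and 11.95% of all. They were in 3.57% of the windows of members higher in TMD8 (1 of 28), in none of the 6 lower there and in 19.4% of those not called (12 of 62). In OCI-Ly1 they were in none of the 10 higher, in 11.1% of the 36 lower and in 19.6% of the 56 not called. The LINC00547 window printed above holds 3 such matches. The E-box letters CACGTG were in 10.0% of member windows and 7.43% of all, with 1 match in that of NORAD. The ETS-type letters CCGGAAGT were in 5.45% and 4.44%, again with a match in NORAD, the metal response core TGCGCNC in 9.09% and 19.97%, the ATF4-type letters TGATGNAA in 4.55% and 3.67%, and the heat shock element in 0.909% and 0.487%. Each was searched on both strands and a match is a description of the letters only.

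The other long noncoding RNA genes of the tables, a comparison chosen after the values were seen, were called in the same direction as the numbered LINC genes on the TMM scale, which on the TPM scales was not computed for them. In OCI-Ly1 at 500 nM 91 of 641 were higher and 190 lower, with a median log2 change of -0.24, where the members' was -0.39 and that of protein-coding genes 0.02. In TMD8 215 of 582 were higher and 33 lower, with a median of 0.31, beside 0.27 for the members and 0.0042 for protein-coding genes. For the difference between the lines, 33 of 681 were above and 214 below, with a median of -0.49, beside -0.58 for the members and 0.10 for protein-coding genes. The pattern of the numbered LINC genes was therefore not particular to them.

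**Figure D5:**
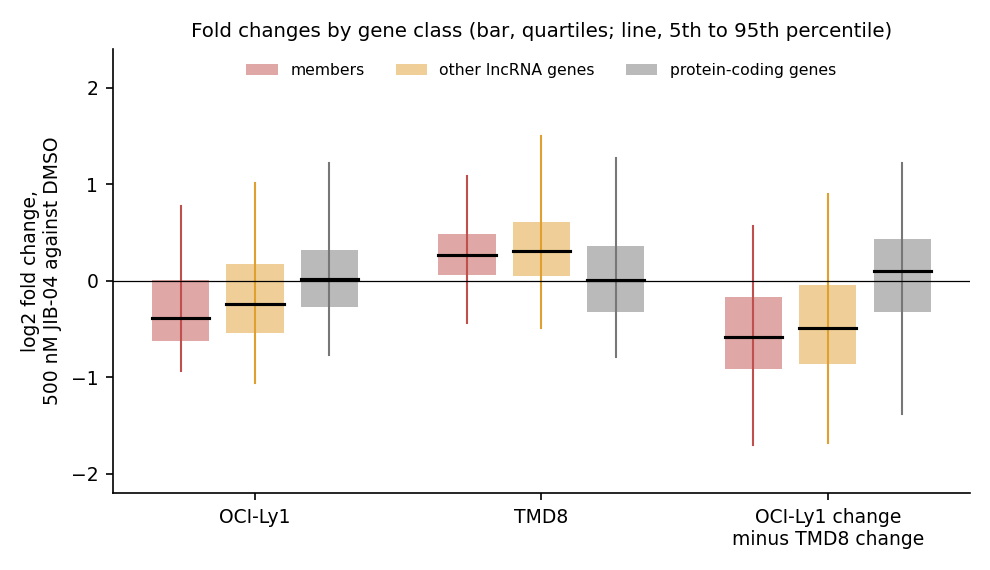
Log2 change at 500 nM in each line, and the difference between the lines, for the LINC members, other long noncoding RNA genes and protein-coding genes on the TMM scale, with boxes for quartiles, a bar for the median and a line from 5% to 95% of the genes. Both noncoding classes lie under the coding genes in OCI-Ly1 (medians -0.39 and -0.24 against 0.02) and above them in TMD8 (0.27 and 0.31 against 0.0042), where on log2(TPM + 1) the members' median is -0.03.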

How the data were processed

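RNA was measured in 18 libraries by rRNA-depleted paired-end sequencing. The authors' deposited tables hold estimated counts and TPM per gene symbol, and all their columns matched a library by name (0 columns of other series). The submitters' processing notes name kallisto 0.46.0, R 4.3.1, DESeq2 1.40.2 and hg19, without roles. Whether strand was used in counting is not given in the sources used here, so reads of overlapping or antisense genes and of near-identical copies could be divided between symbols.

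Estimated counts were rounded and fitted in R 4.3.3 with edgeR 4.0.16 (TMM scaling, genes kept by filterByExpr, quasi-likelihood test, Benjamini-Hochberg adjustment over all tested genes, call at an adjusted p under 0.05), 9 libraries per line, and 18 libraries for differences between lines. Of the members 142 were tested in OCI-Ly1, 131 in TMD8, 119 in both and 2 in neither. SEs are the absolute log2 change divided by the square root of F. The scripts were tested on simulated data.

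Alternatives were RLE size factors, library size alone, no filter, a replicate block, the DESeq2 1.42.0 Wald test, limma 3.58.1 on log2(TPM + 1), log2(TPM + 0.1) and centred log2(TPM + 1), each library left out, and a membership rule of 20 counts (123 members).

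The members and lists were chosen with earlier results of these data known. Named in each line were the 6 largest rises and 6 largest falls at 500 nM and the 3 at 150 nM among called members at 1 CPM or more, with over 3 counts in every library and groups that do not overlap, the 4 largest called in both lines or differing between them in each direction, the 6 highest by TPM with DMSO, members going from at most 3 to at least 10 counts or the reverse, and the listed genes with a described role. LINC00624, LINC00514 and the remaining members called in both lines, or found in 1 line alone, were named after their values were seen.

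Replicate libraries of a group differed by more than sampling noise in every pair, so none was counted as a duplicate. RefSeq symbols, neighbours and start regions are from GRCh38.p14, matched by symbol or synonym.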

Additional observations from a re-analysis of the deposited data

Results flagged for a closer look

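The numbered LINC genes were looked at again where the change in OCI-Ly1 differed from that in TMD8 by the interaction test in the fit of all 18 libraries (edgeR, adjusted p under 0.05). At 500 nM 4 members had a higher change in OCI-Ly1 and 48 a lower one, and at 150 nM 16 had a lower one. On log2(TPM + 1) the counts at 500 nM were 16 and 15, so the imbalance holds on count scales and with centred values and not on uncentred TPM.

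At 150 nM the named differences, OCI-Ly1 minus TMD8 on the log2 scale, were -1.53 for LINC00263, -1.35 for LINC00441, -0.34 for LINC00547, -0.23 for LINC00657 and -0.34 for LINC00667. The call for LINC00441 was lost without the second OCI-Ly1 150 nM library (-1.16, edgeR adjusted p 0.05), and that for LINC00547 without DMSO library 1 or 3 of OCI-Ly1, DMSO library 1 of TMD8 or 150 nM library 3 of TMD8.

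At 500 nM the OCI-Ly1 change was the higher by 1.79 for LINC00563, 0.77 for LINC00116, 0.50 for LINC00341 and 0.32 for LINC00094. It was the lower for LINC00637 (-1.72), LINC00263 (-1.70), LINC00426 (-1.48), LINC00235 (-1.33), LINC00351 (-1.30), LINC00485 (-1.24), LINC00331 (-1.10), LINC00547 (-0.87), LINC00176 (-0.84), LINC00516 (-0.79), LINC00657 (-0.61), LINC00338 (-0.40) and LINC00667 (-0.35). Among these, LINC00094, LINC00176, LINC00235, LINC00331, LINC00338, LINC00351, LINC00426 and LINC00637 lost the call without at least 1 library. For LINC00426, under 1 CPM in TMD8, it was lost without the second TMD8 500 nM library (-0.98, edgeR adjusted p 0.16). On log2(TPM + 1) the difference turned sign, with no call, for LINC00667 (0.13), LINC00338 (0.02) and LINC00176 (0.01), and it kept its sign for the rest of these.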

How the results depend on the processing

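Counts of members called depended most on the scale. On log2(TPM + 1), then log2(TPM + 0.1), the calls were as follows. For OCI-Ly1 at 500 nM against DMSO, lower calls were 25 on the second scale against 43, and against 150 nM higher calls were 19 on the first against 12. For TMD8 at 150 nM, higher calls were 7 and 9 against 25. For TMD8 at 500 nM they were 11 and 14 against 39, with 16 and 18 lower against 6, and between the doses 3 and 4 higher against 9, with 9 and 9 lower against 1. Differences between lines at 150 nM were 1 and 2 higher against 0 and 3 and 4 lower against 16, and at 500 nM 16 and 16 higher against 4 and 15 and 15 lower against 48. Between the DMSO groups they were 101 and 104 higher against 41 and 12 and 13 lower against 38.

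With centred log2(TPM + 1) OCI-Ly1 had 82 lower at 500 nM and 64 lower between the doses, TMD8 had 1 lower at 150 nM, 62 higher at 500 nM and 3 lower between the doses, the difference between lines had 1 higher at 150 nM and 1 higher and 116 lower at 500 nM, and the DMSO groups 83 lower. With no filter 1 OCI-Ly1 member was lower at 150 nM and 4 TMD8 members between the doses, with RLE factors 2, and with library size alone 1 TMD8 member was lower at 150 nM. DESeq2 called 16 higher in TMD8 at 150 nM, and 3 higher and 0 lower between the doses. Among the single-member values tallied below, the direction in TMD8 at 500 nM reversed on log2(TPM + 1) and log2(TPM + 0.1) for LINC00341 (-0.052 and -0.059), LINC00657 (-0.077 and -0.080), LINC00667 (-0.034 and -0.037) and LINC00547 (-0.032 and -0.036). Outside that tally it also reversed for LINC00662 (-0.074 and -0.095), LINC00346 (-0.078 and -0.099) and LINC00674 (-0.049 and -0.059). The cause was not tested.

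Without 1 library, counts ran from 4 to 11 higher for OCI-Ly1 500 nM against 150 nM, from 15 to 27 higher and 1 to 2 lower for TMD8 at 150 nM, from 4 to 12 higher and 0 to 2 lower for TMD8 500 nM against 150 nM, and from 8 to 15 lower for the difference at 150 nM. Fits of TMD8 or OCI-Ly1 without a library leave 2 in its group. Correlations of deviations between libraries of different groups ran from -0.0545 to 0.146 for the same replicate number and from -0.19 to 0.105 for different numbers. The highest were between DMSO and 150 nM libraries of number 1 or 3 (0.123 and 0.146 in OCI-Ly1, 0.125 and 0.141 in TMD8). Replicate numbers may thus pair the libraries in part. The replicate block moved 1 count by more than 1.5 times, with 2 lower in TMD8 between the doses.

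Of 54 called values of single members, 28 kept their call in every alternative, 22 lost it in at least 1 and 4 reversed; of 23 uncalled, 13 were called in at least 1. Members under 1 CPM had a larger median SE than those at 5 CPM or more, and technical replicates limit all p-values.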
